A study of Homo sapiens with 25 samples.

Results

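RNA that came down with the R167Q, R168Q, R174Q and R178Q mutant of IGF2BP1, named RQ, was compared with RNA that came down with wild-type (WT) IGF2BP1 in unstressed HCT116 cells. The comparison used 6 of the 25 RIP-seq libraries of the series, chosen by their labels: 3 mCherry-IGF2BP1 RQ and 3 mCherry-IGF2BP1 WT libraries that had received PBS as the control treatment. HCT116 is a human colorectal carcinoma line. Both groups carried IGF2BP2 KO, IGF2BP3 KO and the Tet-OsTIR1-PURO cassette, and differed in the fusion protein. According to the methods the fusion proteins were introduced with lentivirus, each line was 1 population sorted within a narrow gate of mCherry fluorescence, and dishes were plated and grown separately, so a difference between RQ and WT is also a difference between 2 sorted populations. Other libraries of the same fit serve for comparison here: WT and RQ cells treated for 2 h with 500 µM sodium arsenite (3 and 2 libraries), S181E and Y396E control cells of the same background (3 libraries each), and parental HCT116 cells without the fusion protein (1 control and 1 arsenite library), which measure RNA that sticks to the beads.

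IGF2BP1 is an RNA-binding protein that regulates the translation, stability and localisation of mRNAs, among them ACTB and MYC mRNA. It binds RNA through 2 RRM and 4 KH domains, which are joined by disordered linkers. Arginines in RGG/RG motifs of such linkers can contact RNA weakly and with little sequence preference, and glutamine removes their positive charge. The question behind the comparison was whether these weak contacts of linker 1 affect which RNAs are found with IGF2BP1 in cells. The reference codons at the mutated positions are shown because they are the only designed difference between the 2 proteins. They lie in exon 6 of 15 of the canonical IGF2BP1 transcript, in its coding part, on the plus strand of hg38, at chr17:49038265-49038288 and chr17:49038289-49038300. Capitals mark the codons of the arginines that were replaced (R167Q, R168Q, R174Q, R178Q, counted from the initiator methionine).
IGF2BP1 codons 167 to 174: CGCCGAgggggctttggctctCGG
IGF2BP1 codons 175 to 178: ggtcagcccCGC

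The 6 libraries held between 22246381 and 60273548 counts, of which between 60.1 and 63.3% fell on protein-coding genes. The total count was 27917044 ± 8706834 (SD, n = 3) in WT and 41962860 ± 16492935 (SD, n = 3) in RQ (exact two-sided permutation test, p = 0.3, where 0.1 is the smallest p that 3 against 3 libraries allow). Replicate 3 of both groups stood apart from the other libraries on the first principal component, which held 41.1% of the variance. Of the markers of colon epithelium, EPCAM, KRT8, KRT18, KRT19, CDH1 and CLDN4 were present, and VIL1 was below 1 CPM in all 6 libraries. Levels are in TMM-scaled CPM, the count of a gene relative to the protein-coding total. All 7 markers summed to between 926 and 1166 CPM in WT and between 950 and 1443 CPM in RQ. The 6 fibroblast markers summed to between 1.50 and 6.14 CPM in WT and between 7.19 and 11.7 CPM in RQ, with COL1A2, COL3A1, LUM and PDGFRA at 0 and COL1A1 carrying nearly all of the sum. The 4 neuron markers summed to between 138 and 151 CPM in WT and between 158 and 197 CPM in RQ, mostly from SYT1 (129 to 139 and 145 to 179 CPM), and neither of the 2 that were tested was called. The part of these markers in the results was not tested.

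Of 8734 protein-coding genes tested, 247 (2.83%) were called lower and 307 (3.51%) higher in the RQ than in the WT RIP under control conditions, where a gene was called if it changed by over 20% and its adjusted p was under 0.05. Most changes were small. The median log2 fold change was -0.53 among the genes called lower and 0.51 among those called higher, against 0.03 over all genes tested, and 6 genes fell and 11 rose by more than 2-fold. The genes called higher included mRNAs that the transcription factor ATF4 induces (SLC7A11, PSAT1, TRIB3, SLC7A5, MTHFD2). Those called lower included mRNAs of the desmosome protein DSP, the TAK1 adaptor TAB2, the Polycomb subunit PHC3 and the polyadenylation factor FIP1L1. The 3 RQ libraries did not overlap the 3 WT libraries for 231 of the 247 and for 286 of the 307 genes. Over all genes tested, 6.49% lay below without overlap and 8.74% above.

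The number of calls depended on which libraries were in the model and on whether the replicate number was a block. With the replicate number as a block, a model of the 6 libraries compared called 205 genes lower and 156 higher. Without the block, a model of the 12 control libraries alone called 32 genes lower and 24 higher, and a model of the 6 libraries compared called 3 lower and 4 higher. Without adjustment 720 genes had a p under 0.05 in the last model, and 1906 in the model of 23 libraries. Scaling moved the balance: 44.6% of the calls were on the lower side with TMM factors, 17.9% with total counts and 57.2% with DESeq2 size factors.

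**Figure D1:**
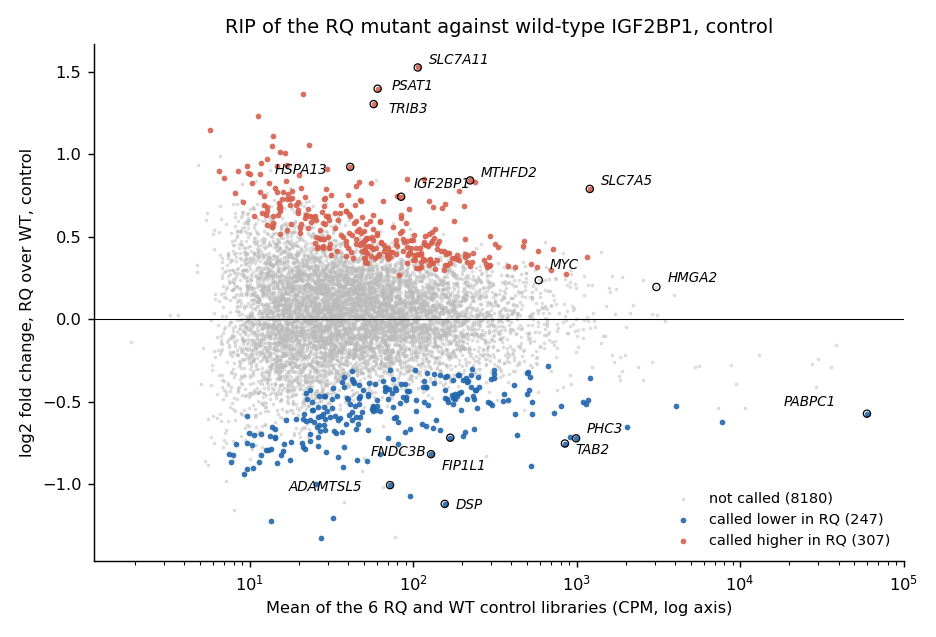
Log2 fold change of RQ over WT under control conditions (y axis) against the mean CPM of the 6 libraries (x axis, log scale), with 1 point per protein-coding gene tested. The 247 genes called lower are blue, the 307 called higher are red and the 8180 not called are grey, with selected genes ringed and named. SLC7A11 at 1.53, PSAT1 at 1.40 and TRIB3 at 1.30 lie above the rest at their level, and PABPC1 stands at the right end at -0.57.

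ATF4 is translated when eIF2 is phosphorylated in the integrated stress response, and switches on genes for amino acid uptake, serine and one-carbon metabolism and tRNA charging. SLC7A11 mRNA, which encodes the cystine and glutamate antiporter, was at 52.6, 51.4 and 61.3 CPM in the WT libraries and at 146, 134 and 197 CPM in the RQ libraries. Each RQ library lay above each WT library, and the mean was 2.88-fold higher (log2 fold change 1.53, standard error 0.12, edgeR quasi-likelihood test with Benjamini-Hochberg adjustment, adjusted p = 5.3e-08). PSAT1, an aminotransferase of serine synthesis, was at 34.1, 26.1 and 40.1 CPM in WT and at 86.1, 88.9 and 89.0 CPM in RQ. The groups were well separated and the RQ libraries close to each other, with a log2 fold change of 1.40 (standard error 0.12, adjusted p = 2.5e-07). TRIB3, a pseudokinase and one of the best known ATF4 targets, was at 34.2, 32.0 and 33.2 CPM in WT and at 82.0, 87.2 and 76.2 CPM in RQ, a log2 fold change of 1.30 (standard error 0.11, adjusted p = 5.3e-08). In both groups its replicates differed far less from each other than from the other group.

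The mRNA of SLC7A5, the large neutral amino acid transporter, was at 961, 832 and 857 CPM in WT and at 1537, 1496 and 1550 CPM in RQ, without overlap (1.73-fold higher, adjusted p = 6.9e-06). SLC1A5, the glutamine transporter, had a log2 fold change of 0.83 (standard error 0.13). MTHFD2, a folate enzyme of mitochondria, was at 159, 149 and 173 CPM in WT and at 268, 290 and 302 CPM in RQ, which is 1.79-fold higher. The mitochondrial enzymes GPT2 and PCK2, which act on alanine and oxaloacetate, were 2.08-fold and 2.16-fold higher at low levels of 15.0 and 8.83 CPM in WT. The transcription factor CEBPG rose by 0.85 on the log2 scale, and PHGDH, the entry enzyme of serine synthesis, by 0.73. TUBE1 rose by 0.63 and the secreted glycoprotein STC2 by 0.39. CEBPG, SLC1A5, PHGDH, TUBE1 and STC2, as well as ATF4, ATF3 and EIF2S1, are named to complete their lists and not by the naming rule.

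In all, 12 of the 30 ATF4 targets tested (of 40 listed) were called higher and 0 lower, beside 3.51% higher and 2.83% lower over all genes tested, and their median log2 fold change was 0.35. The other 18 were not called, ATF4 mRNA itself (log2 fold change -0.18, adjusted p = 0.37), ATF3 (-0.26) and SESN2 (-0.25) among them. The median of the 30 genes, taken in each library relative to the mean of the 6 libraries, was -0.12, -0.23 and -0.08 in WT and 0.13, 0.25 and 0.10 in RQ, so the groups did not overlap. The called count was 10 to 15 under other scalings, 8 with the 12 control libraries alone and 4 with the 6 libraries compared alone. The median WT level of the list was 0.58 times that of the parental arsenite library, against 1.13 over all genes tested, and 1.94 times that of the parental control library, against 3.43. PSAT1 was at 0.29 and 0.35 times these libraries. TRIB3 was at 0.63 times the parental arsenite library but at least 17.2-fold above the parental control library, where its count was 0 and a floor of 3 counts was used. Among genes at least 4-fold above the parental control library in WT or RQ, 12 of the list were tested and 7 called higher. A gene could pass this filter through its RQ level alone, which favours genes higher in RQ. These counts therefore cannot show whether the rises lie above the bead background. Since RNA-Seq libraries were not analysed here, more of these mRNAs in the RQ cells and more of them per immunoprecipitate cannot be told apart.

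**Figure D2:**
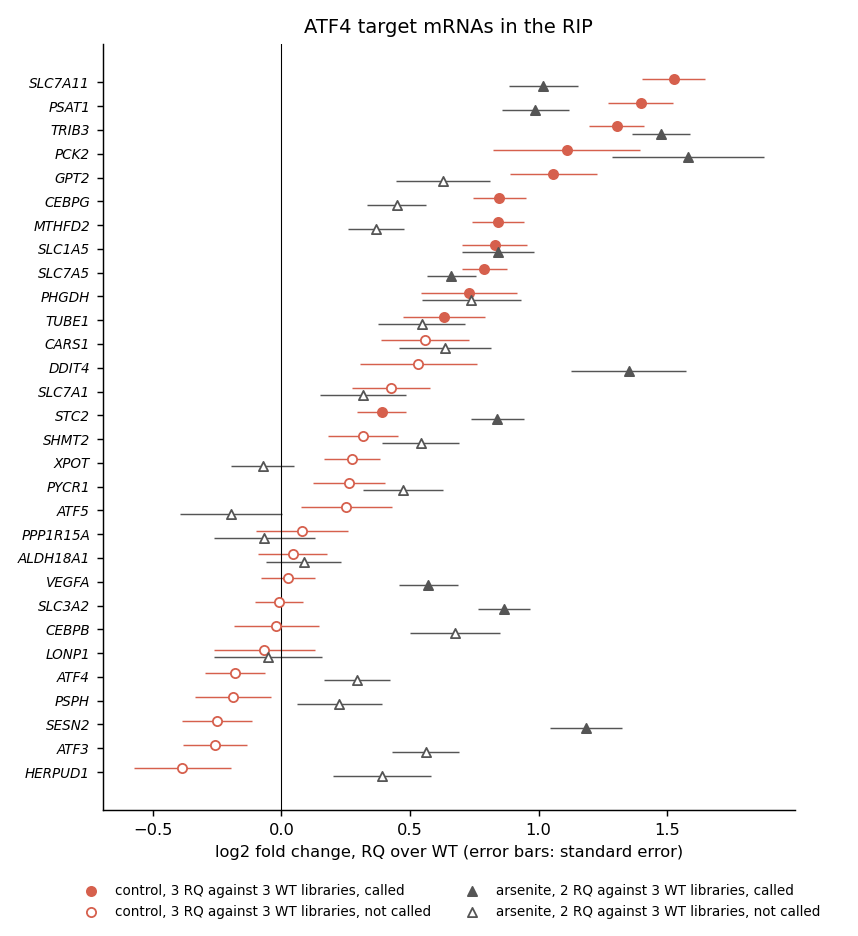
Log2 fold change of RQ over WT (x axis, error bars are standard errors) for the 30 ATF4 target mRNAs tested, in control (red circles, 3 against 3 libraries) and in arsenite (grey triangles, 2 against 3 libraries), with filled symbols for called genes. In control 12 genes were called, with SLC7A11 at 1.53 on top, and 22 of 30 lie above 0.

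The charging enzymes of tRNAs, several of which ATF4 also induces, moved in the same direction in part. Of 20 cytosolic aminoacyl-tRNA synthetases tested, 4 were called higher, with log2 fold changes of 0.83 for YARS1, 0.72 for SARS1, 0.63 for NARS1 and 0.41 for WARS1. RARS1 was called lower (-0.58), and the median of the 20 was 0.13, beside 2.83% lower and 3.51% higher and a median of 0.03 over all genes tested. The 4 higher calls became 2 with the 12 control libraries alone and 0 with the 6 libraries compared alone. The median WT level of the 20 was 0.28 times that of the parental arsenite library, against 1.13 over all genes tested. Against the parental control library it was 0.84 times, beside 3.43. GOT1, the cytosolic aspartate aminotransferase, was at 15.1, 9.92 and 10.5 CPM in WT and at 30.2, 29.8 and 32.8 CPM in RQ. That was 2.57-fold higher and without overlap. In WT it was at 0.08 times the parental arsenite and 0.42 times the parental control library, below the bead background. GOT1 was also called higher relative to WT in the S181E and Y396E control libraries (log2 fold changes 1.06 and 1.46). HSPA13, a chaperone of the HSP70 family, was at 27.6, 28.8 and 29.2 CPM in WT and at 54.3, 50.2 and 57.6 CPM in RQ. Its log2 fold change was 0.92 (standard error 0.11, adjusted p = 1.8e-05). The other genes with the largest rises were MRPS17, RPP40, PYROXD1 and ING3, with log2 fold changes between 1.01 and 1.23 and WT levels of at most 14 CPM in any library. MRPS17, RPP40 and ING3 were also called higher relative to WT in both S181E and Y396E control libraries. HSPA13 and PYROXD1 were called higher in S181E and not in Y396E. Among 35 chaperones and unfolded protein response genes tested, 2 were higher (HSPA13, HSPE1) and 2 lower (HSPA8 and HSPA1B, whose near-identical copy makes its count uncertain), and XBP1, the spliced mRNA of that response, was at a log2 fold change of 0.01.

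The genes called lower included regulators of signalling and chromatin. TAB2, the adaptor that brings TAK1 to ubiquitin chains in NF-kB signalling, was at 1003, 1131 and 1064 CPM in the WT libraries and at 640, 572 and 685 CPM in the RQ libraries. The groups were far apart relative to their spread, with a log2 fold change of -0.75 (standard error 0.09, adjusted p = 2.6e-05). RIPK1 (-0.74), a kinase of TNF signalling, and MYD88 (-0.48), the adaptor of Toll-like receptors, were also called lower, and NFKB2 (0.49) was called higher, which makes 3 lower and 1 higher of 26 genes tested on the TAK1 and NF-kB list (11.5% lower, beside 2.83% over all genes tested). The 3 lower calls became 1 with the 12 control libraries alone and 0 with the 6 libraries compared alone. RIPK1 was at 15.7 CPM in the lowest WT and at 14.4 CPM in the highest RQ library, so that its groups were close. TAB2 stood 33.9-fold and MYD88 4.80-fold above the parental arsenite library in WT. RIPK1 lay below the bead background, at 0.39 times the parental arsenite and 0.75 times the parental control library.

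PHC3, a subunit of Polycomb repressive complex 1, was at 1119, 1322 and 1271 CPM in WT and at 728, 719 and 803 CPM in RQ, which is a log2 fold change of -0.72 (standard error 0.09, adjusted p = 3.9e-05). All RQ libraries lay below all WT libraries. Of the other 31 genes tested on the Polycomb list, CBX2 was lower (-0.59), CBX6 was higher (0.36) and 29 were not called, and the list's median was 0.01. Among the ATP-dependent remodelers and their subunits, ARID1A of the SWI/SNF complex was at 1073, 1268 and 1062 CPM in WT and at 669, 617 and 789 CPM in RQ. Its log2 fold change was -0.71 (standard error 0.10, adjusted p = 0.00020). BPTF of the NURF complex (-0.50), BCL7B of SWI/SNF (-0.49) and the chromodomain helicases CHD9 (-0.48) and CHD7 (-0.36) were called lower as well. In total 5 of 32 remodeler genes (15.6%, beside 2.83% over all genes tested) were lower and 0 higher, with a median of -0.16 and 22 of 32 values below 0. The number of remodelers called lower was 2 with TMM factors from the genes whose mean in mCherry libraries did not exceed the parental library in either treatment, 1 with the 12 control libraries alone and 0 with the 6 libraries compared alone, and the median stayed between -0.24 and -0.07 under the scalings and left-out replicates.

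FIP1L1, which holds the poly(A) polymerase in the cleavage and polyadenylation complex, was at 159, 187 and 148 CPM in WT and at 90.1, 97.5 and 92.3 CPM in RQ (log2 fold change -0.82, standard error 0.10, adjusted p = 3.3e-05). The 3 RQ libraries lay close together and well below the WT libraries. The scaffold SYMPK (-0.69) and the cleavage factor subunit CPSF6 (-0.32) were lower too, whereas NUDT21 (0.44), the partner of CPSF6 in cleavage factor I, was higher. Among the 21 genes of mRNA 3′ end processing 3 were thus lower and 1 higher, beside 2.83% lower and 3.51% higher over all genes tested, and their median of -0.03 turned to 0.06 with total counts. Of these calls 1 lower and 0 higher were left with the 12 control libraries alone, and 0 with the 6 libraries compared alone. FNDC3B, a membrane protein with fibronectin type III domains, was at 206, 228 and 196 CPM in WT and at 124, 134 and 126 CPM in RQ. Its log2 fold change of -0.72 had a standard error of 0.08 (adjusted p = 1.1e-05).

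**Figure D3:**
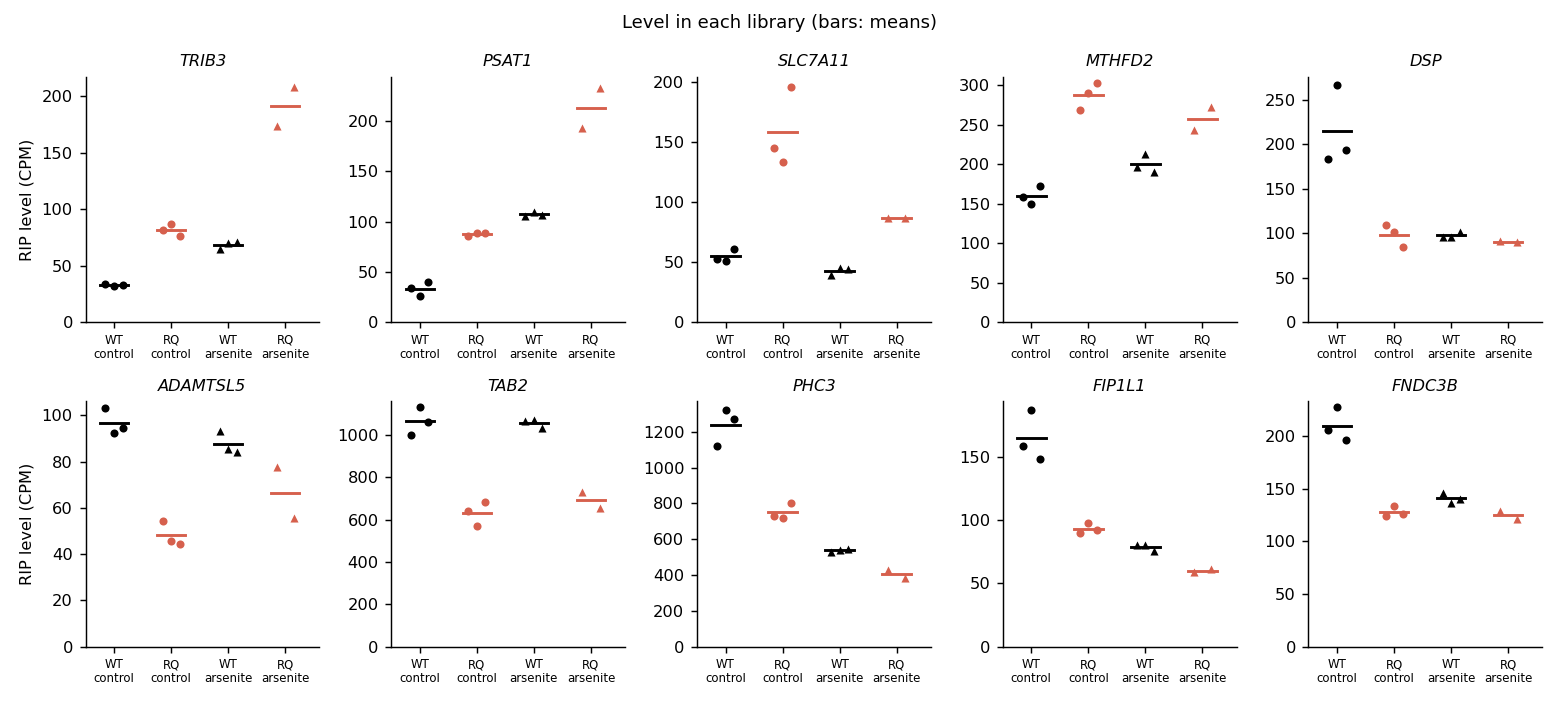
RIP level in CPM (y axes, from 0) of 10 genes in each WT (black) and RQ (red) library, with circles for control and triangles for arsenite and bars for group means. In control the RQ libraries lie above the WT libraries for TRIB3, PSAT1, SLC7A11 and MTHFD2 and below them for the other 6 genes, as with TAB2 at 640, 572 and 685 CPM in RQ.

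Among the genes with the lowest log2 fold changes, DSP encodes desmoplakin, which ties desmosomes to keratin filaments, and its mRNA was at 183, 266 and 193 CPM in WT and at 109, 101 and 85.0 CPM in RQ. The RQ level was 2.17-fold lower (log2 fold change -1.12, standard error 0.12, adjusted p = 6.9e-06), with no overlap although WT replicate 2 was high. ADAMTSL5, a secreted protein of the extracellular matrix, was at 103, 92.3 and 94.5 CPM in WT and at 54.2, 45.8 and 44.2 CPM in RQ (log2 fold change -1.01, standard error 0.12). EPPK1, a plakin like DSP, fell by 0.94 on the log2 scale, the membrane mucin MUC12 fell by 1.32, and the collagen COL12A1 fell by 0.89. MUC12 was at 41.2, 23.6 and 53.0 CPM in WT and at 18.1, 10.6 and 18.4 CPM in RQ, so the spread within WT was wide. RBPMS, an RNA-binding protein, RRBP1 of the endoplasmic reticulum, PHKA2, ZNF251 and NPIPB5 completed the genes with the lowest values, between -1.22 and -0.91. NPIPB5 belongs to a family of near-identical genes, and its count is uncertain. Of 38 genes of the actin cytoskeleton and adhesion tested, 1 was lower (MYH9, -0.75) and 2 were higher (CAPZA1, 0.32, and TMSB4X, 0.79). These counts stand beside 2.83% lower and 3.51% higher over all genes tested. In WT MYH9 was at 0.14 and TMSB4X at 0.46 times the parental arsenite library, and CAPZA1 was 3.03-fold above it.

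DSP and ADAMTSL5 differed in their relation to the bead background. ADAMTSL5 was 11.6-fold above the parental arsenite library in WT, and 2.78-fold above the parental control library. DSP was 1.47-fold above the parental arsenite library but at 0.15 times the level of the parental control library.

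PABPC1, the cytoplasmic poly(A)-binding protein, took 6.28, 6.48 and 6.57% of the protein-coding counts in the WT libraries and 4.54, 4.24 and 5.05% in the RQ libraries. The groups did not overlap (exact two-sided permutation test, p = 0.1, the smallest p possible), and in the model its log2 fold change was -0.57 (standard error 0.12, adjusted p = 0.0064). With PABPC1 left out of the totals, 190 genes were lower and 605 higher in total-count scaling, against 167 and 764 with it. EIF4G3, a scaffold of the cap-binding complex, was at 250, 258 and 261 CPM in WT and at 158, 145 and 176 CPM in RQ (log2 fold change -0.68, standard error 0.09, adjusted p = 6.1e-05). EIF4E (0.40), which binds the cap, the helicase cofactor EIF4H (0.37), and EIF2S1 (0.34) and EIF2B1 (0.71), subunits of eIF2 and of its exchange factor, were higher. Of 47 genes of translation initiation, poly(A)-binding proteins included, 2 were lower and 4 higher (4.26 and 8.51%, beside 2.83 and 3.51% over all genes tested). With the 12 control libraries alone 1 was lower and 0 higher, and with the 6 libraries compared alone 0 were called.

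Apart from PABPC1, no mRNA on the list of known IGF2BP1 targets was called, with 18 of 19 tested genes outside the call. Over all genes tested only 2.83% were called lower and 3.51% higher, so few calls on this list do not set it apart. The median log2 fold change was 0.01, and its sign changed with the scaling. Calls changed with it too: 1 was lower and 4 higher with total counts, and 1 and 1 with PABPC1 left out of the totals. With TMM factors from genes that did not exceed the parental library, 0 were called, PABPC1 included. MYC was at 535, 545 and 538 CPM in WT and at 634, 672 and 600 CPM in RQ. These groups did not overlap, but the log2 fold change of 0.24 (standard error 0.09) had an adjusted p of 0.13. The groups overlapped for ACTB, at a log2 fold change of -0.02 (standard error 0.15), for HMGA2 at 0.20 (standard error 0.12) and for EIF2A at 0.19 (standard error 0.09). GARS1 (0.16) and LIPA (0.20) were not called either. CCDC127 stayed below the filter, at 5.78, 7.65 and 3.50 CPM in WT and 13.4, 10.7 and 17 CPM in RQ. With edgeR's filterByExpr it was tested and called, at a log2 fold change of 1.27 (adjusted p = 0.012).

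The mRNA of the bait rose. IGF2BP1 was at 67.3, 64.6 and 58.0 CPM in the WT and at 118, 102 and 98.3 CPM in the RQ libraries, 1.67-fold higher without overlap (adjusted p = 0.00050). Its count was 0 in both parental libraries, so the WT level was at least 511-fold above the parental arsenite library with a floor of 3 counts per library. The amount of fusion protein on the beads was not measured in these data, and the part of the bait's level in other differences was not tested. IGF2BP2 and IGF2BP3 mRNA remained countable in the KO lines and were not called, with log2 fold changes of 0.12 (adjusted p = 0.66) and 0.24 (adjusted p = 0.068).

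On the other lists few genes were called, and their counts are to be read beside the 2.83% lower and 3.51% higher over all genes tested. Of 13 mitochondrially encoded mRNAs 12 had a log2 fold change below 0 and the median was -0.27, but MT-ND1 (-0.63, adjusted p = 0.033) was the only call and the libraries overlapped in the median of the list, with WT replicate 3 highest. The 62 nuclear-encoded subunits of the respiratory chain had a median of 0.24 with 2 called higher (ATP5MC3, ATP5PO), and their library medians overlapped as well. Of 75 cytosolic ribosomal protein genes RPL29 alone was called, lower by a log2 fold change of -0.52. Stress granule proteins had 2 lower (YBX1, ATXN2) and 1 higher (NUFIP2) of 26, and microRNA silencing and mRNA decay 2 lower (XPO5, CNOT4) and 1 higher (CNOT11) of 42. Among hnRNP and SR splicing factors 1 was lower (SRSF4) and 3 higher (HNRNPA3, TRA2B, HNRNPC, which is also the only call among 19 m6A factors) of 32. Mitochondrial ribosomal proteins had 1 lower (DAP3) and 3 higher (MRPL19, MRPS10, MRPS17) of 61. Cyclins and cell cycle genes had 3 higher (CDC25A, CCNE2, CCND1) of 38, the WNT pathway 1 lower (DVL3) of 33, and the proteasome 1 lower (PSMD1) of 31. No gene was called among 34 replication-dependent histones or 21 genes of cholesterol synthesis.

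The genes called lower stood higher above the parental libraries than those called higher. In WT their median level was 2.46 times that of the parental arsenite library, against 1.01 for genes called higher and 1.13 over all genes tested. In WT 40.1% of them were at least 4-fold above it, against 6.19% and 11.7%. The WT control libraries entered the calls, which lifts these values for genes called lower and lowers them for genes called higher. In the RQ libraries, which entered the calls too, the medians were 1.79, 1.48 and 1.18. Against the parental control library, which held only 1238013 counts, the medians in WT were 7.11, 1.81 and 3.43. To keep the grouping apart from the libraries compared, genes were then binned by the ratio of the WT arsenite libraries to the parental arsenite library. Of the 286 genes at least 8-fold above the parental arsenite library 14.3% were called lower and 1.05% higher in control, and of the 508 genes between 4-fold and 8-fold 6.89% and 1.38%. Of the 2687 genes between 0.5-fold and 1-fold 1.49% were lower and 4.32% higher. Binned instead by the WT control over the parental control library, the 2949 genes at 8-fold and over had 4.00% lower and 2.34% higher, with a median of -0.01. In the bins by the arsenite libraries, the median log2 fold change was 0.05, 0.08, 0.05, 0.00, -0.07 and -0.20 from the lowest to the highest bin. Within 3 equal bins of transcript GC content, 7.97, 8.42 and 12.9% of the genes at least 4-fold above the parental arsenite library were called lower, from the lowest GC bin to the highest. The shift of the 286 genes, as their median in each library relative to the mean of the 6, was 0.07, 0.03 and 0.20 in WT and -0.13, -0.23 and 0.04 in RQ, and RQ replicate 3 overlapped the WT libraries.

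**Figure D4:**
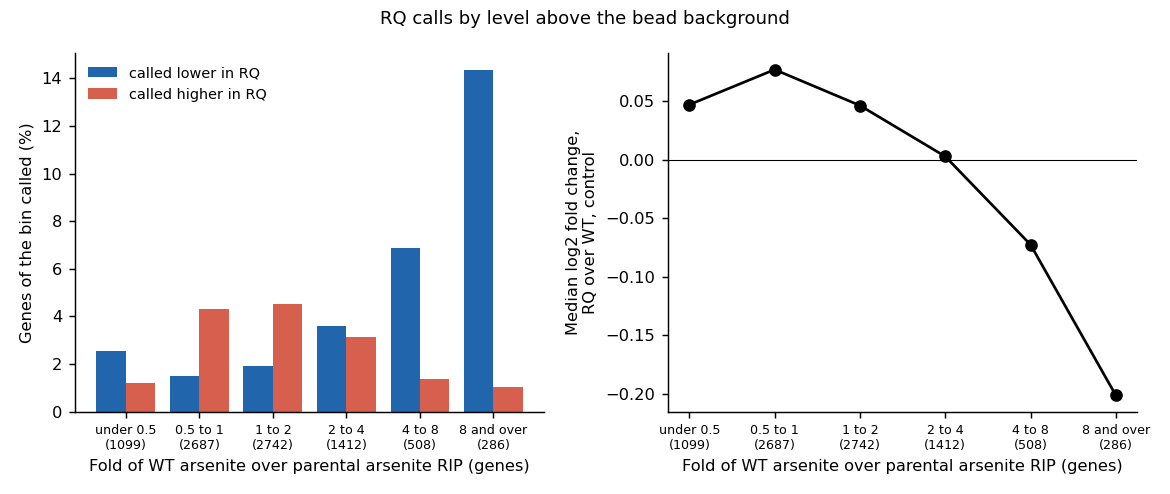
Genes grouped by the fold of the WT arsenite RIP over the parental arsenite RIP (x axes, number of genes in parentheses), with the percentage of each bin called lower (blue) or higher (red) in RQ under control conditions on the left and the median log2 fold change of RQ over WT on the right. The share called lower reached 14.3% in the bin of 8-fold and over, where the median was -0.20.

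In the reverse arrangement, with genes binned by the WT control libraries over the parental arsenite library and RQ compared with WT in arsenite, the medians were 0.05, 0.01, -0.00, -0.05, -0.11 and -0.15. In both arrangements the medians fell in each step from the bin of 0.5-fold to 1-fold upwards, with grouping libraries that were not in the contrast, although both used the 1 parental arsenite library.

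Transcripts of the genes called lower had longer coding sequences, shorter 3′ UTRs and higher GC content than those of genes called higher. The medians were 1977 and 1254 bases of coding sequence (1458 over all genes tested), 1225 and 1923 bases of 3′ UTR (1537), and 51.9 and 43.8% GC (48.2%), for the canonical transcript of each gene. Total length hardly differed, at 3686, 3730 and 3682 bases. Short motifs followed: CGGAC occurred 0.35 and 0.23 times per kb (0.27 over all), GGGG 4.58 and 3.17 times (3.94) and CACAC 0.89 and 0.77 times (0.86), each counted on the transcript strand. TGTGTGTG was present in 22.7 and 25.1% of transcripts (22.5%). When all genes were split into 5 equal bins by GC, the share called lower went from 1.37 to 4.18% and the share called higher from 5.95 to 1.72%, from the lowest GC bin to the highest. The median log2 fold change went from 0.10 to -0.03 in control but from -0.11 to 0.12 in arsenite, so GC content moved with the RQ difference in opposite directions in the 2 treatments. In the single control libraries the highest GC bin was at 0.15, 0.01 and -0.07 in WT and at -0.01, 0.09 and -0.17 in RQ, and the groups overlapped.

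The same genes were then followed in arsenite, an oxidative stressor that phosphorylates eIF2 and drives mRNAs into stress granules, in 2 RQ and 3 WT libraries on neither side of the control contrast, although they entered the same model, its spread and its filter. Of the 247 genes lower in control, 202 (81.8%) were below 0 in arsenite, against 52.1% of all genes tested, and 12 were called lower and 0 higher. The calls in arsenite numbered 19 lower (0.218%) and 25 higher (0.286%) over all genes tested. The 12 genes included TAB2 (-0.61, adjusted p = 0.0035), MYD88 (-0.56) and CNOT4 (-0.55), a ubiquitin ligase of the CCR4-NOT complex. Of the 307 genes higher in control, 207 (67.4%) were above 0 in arsenite, against 47.9% of all, and 18 were called higher and 0 lower. These 18 included TRIB3, at 64.8, 70.0 and 71.4 CPM in the WT libraries and 174 and 208 CPM in the RQ libraries with arsenite (log2 fold change 1.48, standard error 0.11, adjusted p = 2.8e-08), as well as SLC7A11 (1.02), PSAT1 (0.99), SLC7A5 (0.66), GOT1 (0.67), SARS1 (0.67) and IGF2BP1 (1.02). The median log2 fold change in arsenite was -0.17 for the genes lower and 0.08 for the genes higher in control, a choice of genes made by their control values.

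**Figure D5:**
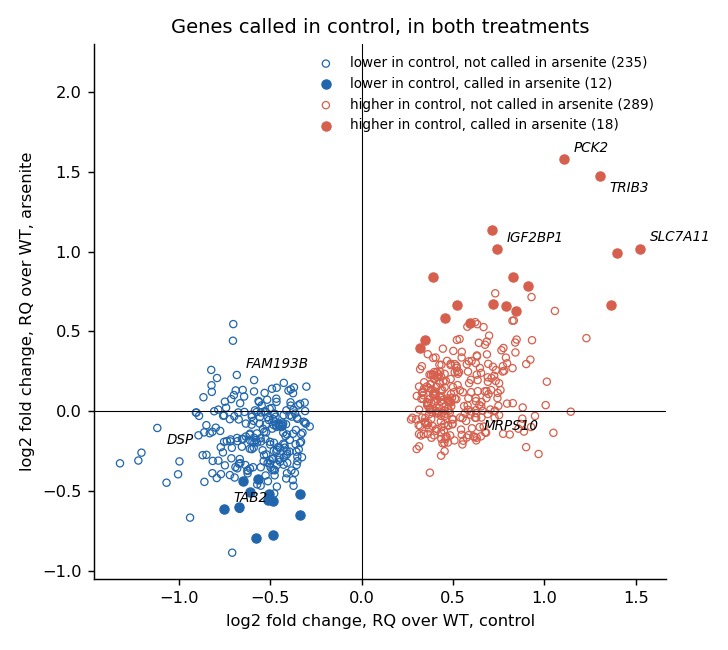
Log2 fold change of RQ over WT in control (x axis) and in arsenite (y axis) for the 247 genes called lower (blue) and the 307 called higher (red) in control, with filled symbols for genes also called in arsenite. Of the blue points 202 lie below 0 on the y axis and of the red points 207 lie above it, and TRIB3, PCK2 and SLC7A11 stand at the upper right.

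The difference between the treatments was tested itself as an interaction, which called 1 gene lower (0.0114%) and 5 higher (0.0572%) of 8734, with 844 at an unadjusted p under 0.05. DSP and FAM193B were called lower in RQ in control and not in arsenite: DSP was at 95.7, 95.4 and 101 CPM in the WT libraries and at 91.4 and 89.8 CPM in the RQ libraries with arsenite, and its log2 fold change differed by 1.01 between the treatments (adjusted p = 0.021). SESN2 and SLC3A2, an ATF4 target that restrains mTORC1 and the heavy chain shared by SLC7A5 and SLC7A11, were not called in control and were called higher in arsenite. Of the 30 ATF4 targets, 11 were called higher in arsenite, with a median of 0.57.

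RQ control libraries were also set directly against those of the other linker mutants, which carry glutamate in place of a serine or tyrosine that can be phosphorylated. These contrasts share the 3 RQ libraries with the comparison above. Over all genes tested, 10.1% were lower and 8.54% higher in RQ than in S181E, and 12.7% lower and 12% higher than in Y396E. Of the ATF4 targets, 11 of 30 were higher and 2 lower in RQ than in S181E, and 10 were higher and 2 lower than in Y396E. Relative to the same WT libraries, 6 of the 30 were called higher and 2 lower in S181E, and 10 higher and 1 lower in Y396E. Over all 8734 genes tested, 1119 were higher and 699 lower in S181E, and 1411 and 1112 in Y396E. Of the 307 genes called higher in RQ, 152 were also called higher in S181E and 163 in Y396E. Of the 247 called lower in RQ, 95 and 125 were also called lower. All these comparisons used the same WT libraries, which by itself favours such overlap. The median of the ATF4 list relative to WT was 0.10 in S181E, 0.26 in Y396E and 0.35 in RQ. TRIB3 exceeded S181E by 1.09 and Y396E by 1.12 on the log2 scale (standard errors 0.10, adjusted p = 1.3e-07 and 6.3e-08), and its log2 fold changes to WT were 0.22 for S181E and 0.18 for Y396E. SLC7A5 exceeded them by 0.79 and 0.43, SLC7A11 by 0.62 and 0.97 and PSAT1 by 0.74 and 0.82, all with an adjusted p of at most 0.00093. Relative to WT, SLC7A11 was at 0.90 in S181E and 0.56 in Y396E, PSAT1 at 0.65 and 0.57, and MTHFD2 at 0.58 and 0.63, all with an adjusted p of at most 0.0014. MTHFD2 was at 0.26 in RQ relative to S181E (adjusted p = 0.069) and at 0.22 relative to Y396E (adjusted p = 0.12), which did not pass. ADAMTSL5 was lower in RQ than in S181E by a log2 fold change of -0.67 and than in Y396E by -0.53 (adjusted p = 0.00041 and 0.0024), with log2 fold changes to WT of -0.33 in S181E and -0.47 in Y396E (adjusted p = 0.049 and 0.0048).

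For several of the other decreases RQ was not called different from the other mutants, which does not show that the mutants act alike. TAB2 was at -0.11 (standard error 0.09, adjusted p = 0.43) relative to S181E and at 0.04 (standard error 0.09, adjusted p = 0.79) relative to Y396E, with log2 fold changes to WT of -0.75 in RQ, -0.64 in S181E and -0.79 in Y396E. PHC3 (0.17 and 0.24), FNDC3B (-0.13 and 0.15) and ARID1A (0.11 and 0.18) likewise did not pass the test against either mutant. FIP1L1 was 0.40 higher in RQ than in Y396E (adjusted p = 0.0065) and did not pass against S181E. PABPC1 had the opposite order, with RQ 0.84 above S181E and 1.43 above Y396E (adjusted p = 2.8e-05 and 2.0e-08), and its log2 fold changes to WT were -0.57 in RQ, -1.42 in S181E and -2.00 in Y396E.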

How the data were processed

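RIP-seq reads were single-end and came from a strand-specific kit after depletion of rRNA. Per the labels and methods the authors aligned them to hg38 with STAR 2.7.11b, allowing 2 mismatches, and counted reads on exons per gene with featureCounts of Subread 2.0.6 and the strand setting for this kit. The deposited values are these raw counts, not normalized. Reads with several matches are left out by default, which makes near-identical copies uncertain. Gene symbols, biotypes and canonical transcripts came from GENCODE release 44, another release than the authors used, in which 62541 of 63086 identifiers were found. All count columns belonged to a sample.

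TMM factors over protein-coding genes, CPM and tests were computed from the counts with edgeR 4.0.16 (limma 3.58.1, DESeq2 1.42.0, R 4.3.3). Figures were drawn with matplotlib 3.10.9 in Python 3.11.15. The authors' methods name glmQLFTest and a filter at 10 CPM. Here a gene had to exceed it in at least 12 of 23 mCherry libraries, and 1 model of 8 groups without covariates was chosen and fitted with glmQLFit, with Benjamini-Hochberg adjustment. Printed CPM used factors over the 23 libraries, and folds over parental libraries used factors over all 25, with parental counts raised to at least 3. Floors cover counting error only. Exact permutation tests used scipy 1.17.1. Since labels do not name separate clones, p-values measure the spread between these dishes.

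Named genes were the 10 lowest and the 10 highest log2 fold changes without overlap among called genes, the 10 lowest adjusted p-values, the bait, its paralogs and RNAs that the study's text names, up to 5 called members of each list, and the 3 lowest adjusted p-values of the interaction. The members of the comparison, the gene lists and the tests were chosen with earlier results of these data known. The procedure was tested on simulated data with known changes. Alternatives covered scaling, test, gene filter, libraries in the model, replicate block and left-out replicates. RNA-Seq libraries were not analysed here.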

Additional observations from a re-analysis of the deposited data

Results flagged for a closer look

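For 6 genes the difference between RQ and WT in arsenite departed from that in control by the interaction test of edgeR. SESN2, a stress-induced inhibitor of mTORC1 signalling, had the largest value, 1.43 (standard error 0.20, adjusted p = 0.0015). It was at 61.4, 66.3 and 68.7 CPM in the WT libraries and at 137 and 161 CPM in the RQ libraries with arsenite, and averaged 16.4 and 13.8 CPM in control. SLC3A2, the heavy chain of amino acid transporters, followed with 0.87 (adjusted p = 0.0075), at 206, 224 and 224 CPM against 357 and 438 CPM in arsenite and at means of 137 and 136 CPM in control. IER3, an immediate early gene, differed by 0.82 (adjusted p = 0.021), with 390, 394 and 386 CPM in WT and 664 and 656 CPM in RQ in arsenite. These 3 genes were called higher in arsenite and not in control.

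The other 3 genes were called in control and not in arsenite. DSP differed by 1.01 and FAM193B by 0.91, both lower in RQ under control conditions, and MRPS10, a mitochondrial ribosomal protein, differed by -0.78, being higher in RQ under control conditions. In WT cells DSP was at 214 CPM in control and at 95.7, 95.4 and 101 CPM in arsenite, beside 98.4 CPM in the RQ control libraries. Relative to the same WT control libraries, all 3 genes were also called in S181E and Y396E, in the same direction as in RQ. The log2 fold changes were -0.98 and -0.74 for DSP, -0.76 and -0.80 for FAM193B, and 0.77 and 0.52 for MRPS10. These control differences were thus not particular to RQ. IER3 is named because it passed this test and not by the naming rule. With 2 RQ libraries in arsenite, the number of genes called went from 6 to 0 without RQ replicate 2 in arsenite and to 2 without replicate 1.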

How the results depend on the processing

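Counts of genes called depended more on the model than values of single genes did. Besides the fits of fewer libraries given above and the replicate block and left-out replicates given below, counts moved by more than 1.5 times in at least 1 direction as follows. TMM factors from the 1532 genes whose mCherry mean did not exceed the parental library in either treatment left 115 lower and 100 higher, glmTreat with a minimum change of 20% left 32 and 27, and restricting the test to 4267 genes with a 4-fold excess over the parental control library in WT or RQ left 162 and 138. Fewer genes came into the last of these fits. The DESeq2 Wald test gave 437 lower and 382 higher, total counts 764 higher (167 lower), and total counts without PABPC1 605 higher (190 lower). Other settings stayed within 1.5 times. DESeq2 size factors gave 313 and 234, filterByExpr 213 and 330, and all biotypes 209 and 455 (31.5% lower). Some of these settings were chosen after seeing the data. Among them, TMM over the tested genes gave 312 and 281, and glmQLFit with legacy = FALSE 229 and 293. The fit without both control replicates 3, also chosen then, gave 242 and 256. The adjusted p alone and legacy = TRUE, the default here, gave the counts reported. Total counts moved the median of all genes to 0.13. The share of lower calls lay between 17.9 and 57.2%, against 44.6%. The 12 control libraries gave 32 lower and 24 higher, of which 93.8 and 91.7% had the same sign in arsenite. The 6 libraries compared gave 3 and 4. The cause of these changes was not tested.

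Without 1 replicate, between 119 (RQ replicate 2) and 397 (WT replicate 2) genes were lower and between 1.8e+02 (RQ replicate 1, rounded to 2 digits) and 454 (WT replicate 2) higher. The interaction called 0 to 31 genes without 1 replicate, the extremes being RQ arsenite replicate 2 and WT control replicate 2. It called 3 genes with total counts without PABPC1, 3 with TMM from those 1532 genes, 71 with DESeq2, 1 with glmTreat, 10 without a filter, 11 with all biotypes, 2 among genes over the parental library, 10 without both control replicates 3, and 0 with the WT and RQ libraries alone (507 at an unadjusted p under 0.05).

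The main model did not use the replicate numbers. Deviations of same-numbered RQ and WT libraries correlated at 0.09, 0.34 and 0.30, and those of differently numbered ones at -0.34 to 0.08. Whether the numbers mark batches shared by RQ and WT was not tested. With the replicate number as a block 484 genes were lower, 597 higher and 43 called in the interaction, and in the block fit of the 6 libraries 205 were lower and 156 higher. Median folds over the beads of the genes called lower and higher were 2.46 and 1.01 with the parental arsenite library. With the parental control library they were 7.11 and 1.81. Both used the WT control libraries, which entered the calls.

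Of 80 named genes called, 6 kept the call under every alternative that tested them (TRIB3, PSAT1, SLC7A11, MTHFD2, DSP, ADAMTSL5). With these 6 included, 26 kept it under every alternative other than the fit of the 6 libraries compared. No called gene changed sign. Depth limits genes of low level such as CCDC127, which the filter at 10 CPM left untested.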
